A study of Mus musculus with 4 samples.

Results

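The genes described here are 10 transcription factor genes of the primitive streak and early mesoderm, namely Mixl1, Evx1, Gsc, Mesp1, Msgn1, Tbx6, Hand1, Gata2, Isl1 and Foxf1. They were taken by symbol from a table of 28856 probe sets, and for each gene the brightest probe set that the platform annotation assigns to that symbol alone was kept, which gave 10 of 19938 named genes. All arrays measured E14, a mouse embryonic stem cell line. It was grown feeder-free on gelatin with LIF, 20% FBS, 3 µM of the GSK3 inhibitor CH99021 and 1 µM of the MEK inhibitor PD0325901. The cells depleted of Usp22 carried a lentiviral shRNA against Usp22, and the control cells a lentiviral Luc shRNA, with 2 Affymetrix arrays for each. Usp22 removes ubiquitin from histones as part of the coactivator complex SAGA. The labels do not say whether replicates came from separate cultures or from 1 infected pool, and the spread behind every p-value may therefore be technical.

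The primitive streak is the region of the gastrulating embryo where epiblast cells leave the epithelium and become mesoderm or endoderm. Nodal, Wnt and BMP signals induce it, and homeodomain, T-box and bHLH factors then divide the new mesoderm into axial, paraxial, lateral and extraembryonic parts. In naive embryonic stem cells these factors are known to be low, and their promoters often lie in CpG-rich DNA held by Polycomb proteins. The GSK3 inhibitor used here stabilises beta-catenin, the effector of Wnt signalling, while the MEK inhibitor blocks ERK, a kinase that differentiation requires. The comparison asks whether reduced Usp22 moved these genes in cells that were kept undifferentiated.

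Promoter windows, from 250 bases before to 50 after the start of transcription, were taken from RefSeq (GRCm38.p6) and held 7 of the 10 genes in 8 windows. The windows shown are those of the regulators with the lowest values and those with TCF/LEF letters. In the windows of Gata2, Isl1 and Evx1, the genes with the lowest depleted minus control differences over all 4 arrays, capitals mark CpG dinucleotides, of which there are 32, 37 and 12. The Gata2 window is the upstream one of its 2 starts, at chr6:88193641-88193940 on the plus strand, Isl1 lies at chr13:116309639-116309938 on the minus strand, and Evx1 at chr6:52313248-52313547 on the plus strand.
Gata2: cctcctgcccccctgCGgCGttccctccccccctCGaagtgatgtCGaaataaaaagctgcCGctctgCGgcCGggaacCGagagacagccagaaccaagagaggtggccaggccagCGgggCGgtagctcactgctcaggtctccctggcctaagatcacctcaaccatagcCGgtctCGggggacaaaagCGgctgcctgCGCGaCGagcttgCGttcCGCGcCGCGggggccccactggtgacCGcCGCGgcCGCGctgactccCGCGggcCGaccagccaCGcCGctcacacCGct
Isl1: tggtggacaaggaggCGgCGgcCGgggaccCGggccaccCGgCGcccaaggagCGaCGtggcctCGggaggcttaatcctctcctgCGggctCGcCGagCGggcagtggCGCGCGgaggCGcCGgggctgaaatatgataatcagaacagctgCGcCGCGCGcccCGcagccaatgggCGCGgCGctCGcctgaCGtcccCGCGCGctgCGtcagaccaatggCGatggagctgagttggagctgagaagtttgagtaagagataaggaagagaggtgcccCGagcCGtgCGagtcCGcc
Evx1: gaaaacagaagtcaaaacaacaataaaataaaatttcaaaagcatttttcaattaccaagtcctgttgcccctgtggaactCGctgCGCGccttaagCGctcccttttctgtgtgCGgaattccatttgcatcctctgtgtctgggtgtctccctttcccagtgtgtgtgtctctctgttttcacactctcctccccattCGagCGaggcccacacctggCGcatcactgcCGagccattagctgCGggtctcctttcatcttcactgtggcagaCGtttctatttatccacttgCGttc

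In the windows of Mesp1 (chr7:79793541-79793840, minus strand) and Msgn1 (chr12:11208899-11209198, minus strand), genes of nascent and presomitic mesoderm, capitals mark the core letters bound by TCF and LEF factors, CTTTGA or TCAAAG on the strand shown. Each window holds 2 matches. At least 1 match was found in 16.0% of all 32851 promoter windows and 2 or more in 1.73%. None was found in the other 6 windows of the regulators.
Mesp1: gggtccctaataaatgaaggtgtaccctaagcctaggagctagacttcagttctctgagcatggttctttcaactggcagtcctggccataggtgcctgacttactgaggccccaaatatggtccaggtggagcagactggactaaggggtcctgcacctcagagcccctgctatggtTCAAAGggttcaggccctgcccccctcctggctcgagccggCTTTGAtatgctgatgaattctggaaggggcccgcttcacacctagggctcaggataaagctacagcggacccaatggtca
Msgn1: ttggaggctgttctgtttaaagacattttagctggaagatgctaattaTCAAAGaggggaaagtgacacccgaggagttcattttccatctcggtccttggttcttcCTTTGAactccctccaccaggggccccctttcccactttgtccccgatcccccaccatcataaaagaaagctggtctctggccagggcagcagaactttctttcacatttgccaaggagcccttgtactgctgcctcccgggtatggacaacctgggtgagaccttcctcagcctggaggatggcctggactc

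The core letters of T-box sites, AGGTGT or ACACCT, occur 2 times in the Mesp1 window and 1 time in the Evx1 window, and in 13.7% of all windows. The matches were not overlapping with the TCF/LEF letters. The Mesp1 and Msgn1 windows hold 4 CpG dinucleotides each and the Tbx6 window 7, against 25 in that of Gsc and 29 in the second Gata2 window. These are descriptions of letters, not binding sites.

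The labels were checked first. The log2 signal of Usp22 was 8.23 and 8.29 in depleted cells, against 9.41 and 9.36 in control cells, a log2 difference of −1.12 (adjusted p = 0.00826 in limma). Of 20 markers of embryonic stem cells, 19 lay above the background, which was set at 6.99 on the log2 scale, the 95th percentile of the mean signals of 1190 olfactory and vomeronasal receptor genes. Lin28a was the exception. Control replicate 2 stood apart from the other arrays. Its correlation across genes was 0.877 and 0.908 with the depleted arrays and 0.941 with control replicate 1, while for control replicate 1 the values with the depleted arrays were 0.951 and 0.974. For the regulators and some of the other genes, results are therefore given below also without that array.

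No regulator passed the test. In limma's fit over all 19938 genes, 0 of the 10 rose and 0 fell at an adjusted p under 0.05, where 2.62% of all genes rose and 0.105% fell. At an unadjusted p under 0.05, 4 regulators had lower signal in depleted cells (Gata2, Evx1, Isl1 and Mixl1) and 0 had higher signal, against 6.63% and 15.4% of all genes. Group means were lower in depleted cells for 9 of the 10, and the median log2 fold change was −0.40, against −0.12 over all genes. In 6 of the 10 both depleted arrays lay below both control arrays, and in 0 of the 10 above them. Of all genes, 33.3% lay below without overlap and 27.4% above. With 2 arrays a group, the smallest p of an exact permutation test is 0.333. In a bulk sample, fewer cells that transcribe a gene and less RNA per cell cannot be told apart.

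**Figure D1:**
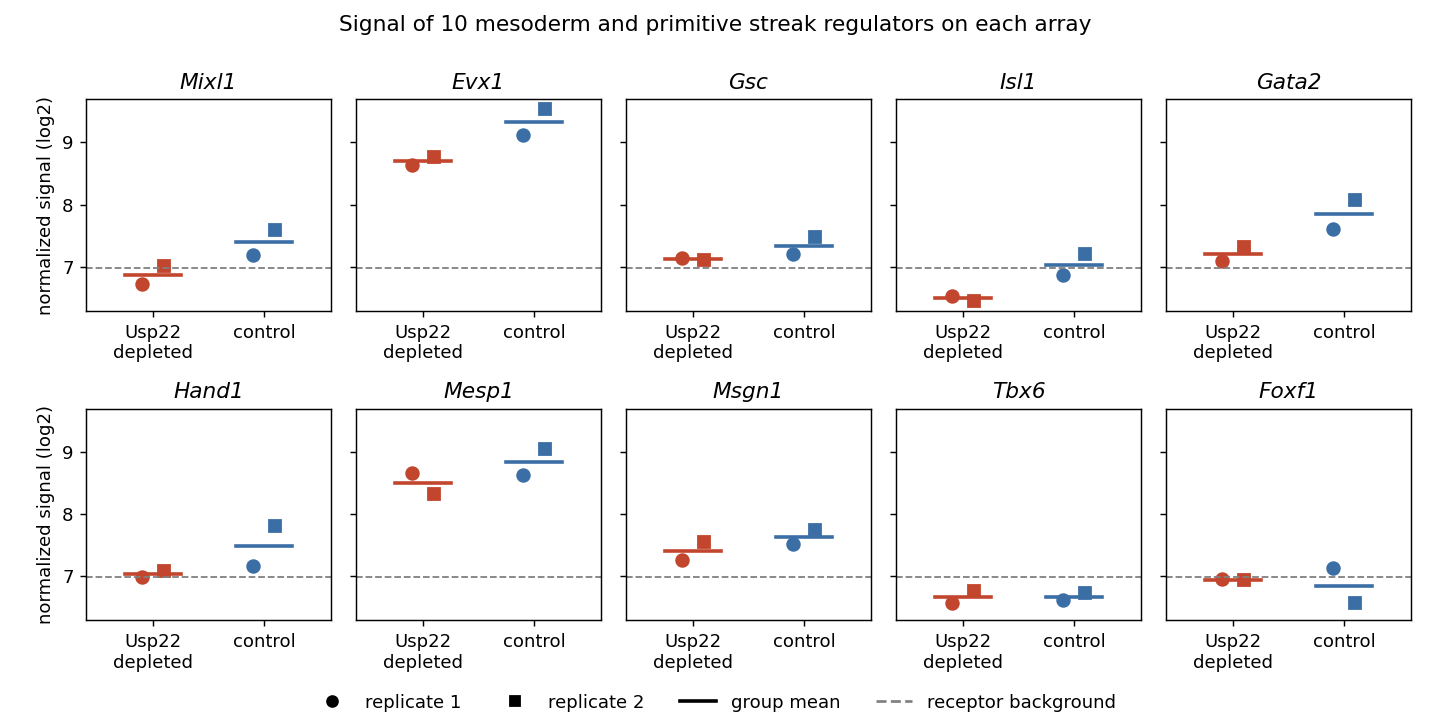
Normalized log2 signal (y axis) of each of the 10 regulators on the Usp22-depleted arrays (left, red) and the control arrays (right, blue), with circles for replicate 1, squares for replicate 2, bars for group means and a dashed line at the receptor background of 6.99. Evx1 and Mesp1 lie well above the line, and in 6 genes both depleted points lie below both control points.

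Among the factors of the streak itself, Evx1 and Mixl1 had the lower signal in depleted cells and Gsc differed little. Evx1, a homeodomain factor of the even-skipped family expressed in the posterior streak, had a log2 signal of 8.64 and 8.76 in depleted cells, against 9.12 and 9.53 in control cells. Both depleted arrays were below both control arrays, and all 4 were above the background. Its log2 fold change was −0.63 (95% interval −1.15 to −0.10, limma adjusted p = 0.158), which placed it in the lowest 1.91% of all genes. When limma's variance was allowed to follow intensity, without or with robust settings, Evx1 passed (adjusted p = 0.0367 and 0.0244), where 1.43% and 1.70% of all genes fell. Leaving out control replicate 2 gave −0.42 (limma adjusted p = 0.332), and centring each array on its median gave −0.40.

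Mixl1, a paired-type homeodomain factor of the streak that acts in endoderm and axial mesoderm, read 6.73 and 7.02 in depleted cells, against 7.20 and 7.60 in control cells. The arrays did not overlap, and depleted replicate 1 was under the background. The log2 fold change was −0.53 (95% interval −1.05 to −0.00024, limma adjusted p = 0.226), or −0.32 without control replicate 2. Gsc, the goosecoid homeodomain factor of the anterior streak and organizer, read 7.15 and 7.11 in depleted cells, against 7.21 and 7.48 in control cells. Here the groups did not overlap either, but control replicate 1 lay close to the depleted arrays and control replicate 2 stood alone. The log2 fold change of Gsc was −0.22 (95% interval −0.75 to 0.31), and −0.08 without control replicate 2.

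The bHLH and T-box factors that act in nascent and paraxial mesoderm showed overlapping groups. Mesp1, a bHLH factor of nascent mesoderm and of the precursors of the heart, read 8.66 and 8.32 in depleted cells, against 8.63 and 9.05 in control cells. Depleted replicate 1 was above control replicate 1, and all arrays were above the background. Its log2 fold change was −0.35 (95% interval −0.87 to 0.18, limma adjusted p = 0.378). It was −0.52 without depleted replicate 1, −0.18 without depleted replicate 2, −0.14 without control replicate 2 and −0.13 with each array centred on its median.

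Msgn1, a bHLH factor of presomitic mesoderm, read 7.26 and 7.56 in depleted cells, against 7.52 and 7.75 in control cells. Its log2 fold change was −0.22 (95% interval −0.75 to 0.31), and −0.10 without control replicate 2. Without depleted replicate 1 it was −0.07 and without depleted replicate 2 −0.37. Tbx6, a T-box factor needed for paraxial mesoderm in place of neural tissue, read 6.57 and 6.77 in depleted cells, against 6.62 and 6.73 in control cells. All 4 values of Tbx6 were under the background, and its log2 fold change of −0.01 had a 95% interval from −0.53 to 0.52. Without control replicate 2 it was 0.05. The smallest change that passed among all genes was 0.86.

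Of the factors of lateral, extraembryonic, cardiac and blood mesoderm, Gata2, Isl1 and Hand1 had lower signal in depleted cells without overlap, and Foxf1 did not. Gata2, a zinc finger factor of blood progenitors that is also made in trophoblast, read 7.10 and 7.33 in depleted cells, against 7.61 and 8.08 in control cells. All 4 arrays were above the background. Its log2 fold change of −0.63 (95% interval −1.16 to −0.11, limma adjusted p = 0.155) was close to that of Evx1, and moved to −0.40 without control replicate 2.

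Isl1, a LIM homeodomain factor of the second heart field and of motor neurons, read 6.55 and 6.45 in depleted cells, against 6.87 and 7.21 in control cells. Only control replicate 2 was above the background. The log2 fold change was −0.54 (95% interval −1.07 to −0.02, limma adjusted p = 0.215), and −0.37 without control replicate 2.

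Hand1, a bHLH factor of extraembryonic mesoderm, heart and trophoblast giant cells, read 6.99 and 7.08 in depleted cells, against 7.17 and 7.81 in control cells. The groups did not overlap, but control replicate 2 stood alone. The log2 fold change was −0.45 (95% interval −0.97 to 0.08, limma adjusted p = 0.281), and −0.13 without that array.

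Foxf1, a forkhead factor of lateral plate and extraembryonic mesoderm, read 6.95 and 6.94 in depleted cells, against 7.13 and 6.57 in control cells. Both depleted values lay between the control values. Its log2 fold change was 0.09 (95% interval −0.43 to 0.62), and −0.18 without control replicate 2. A second, dimmer probe set of Foxf1 read 6.11 and 6.08 in depleted cells, against 5.98 and 6.60 in control cells. On the second probe set the order of the control arrays was the opposite, and the difference of the means was −0.19.

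The size of the differences moved with control replicate 2. For 9 of the 10 regulators control replicate 2 read higher than control replicate 1, by a median over the 10 of 0.38 on the log2 scale, against −0.02 over all genes. For 6 of the 10 (Gsc, Hand1, Mesp1, Msgn1, Tbx6 and Foxf1) the gap between the control arrays exceeded the difference between the group means. Set against control replicate 1, depleted replicate 1 was lower for 9 regulators and depleted replicate 2 for 8, with medians of −0.21 and −0.18. Set against control replicate 2 the counts were also 9 and 8, with medians of −0.58 and −0.65. The receptor genes, which mark the floor of the array, had medians of −0.04 and −0.05 against control replicate 1 and −0.35 and −0.38 against control replicate 2. The part of control replicate 2 in the regulators' lower means was measured only by leaving it out. Their median log2 fold change was then −0.16, and 9 of 10 means were lower, with Tbx6 the exception in place of Foxf1. In that fit 0 of the 10 passed in limma, where 0.01% of all genes fell. With so few genes of any kind called as lower, the count of 0 is no result about the regulators.

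Without control replicate 1, 6 regulators passed the test as lower, namely Evx1, Gata2, Hand1, Isl1, Mesp1 and Mixl1, with limma adjusted p from 0.00351 to 0.0458. In that fit 21.2% of all genes fell. Their log2 fold changes ran from −0.87 for Gata2 to −0.56 for Mesp1. The lone control array is assumed in this fit to vary like the depleted arrays. Without either depleted array, limma passed 0 regulators, and 0 were lower at an unadjusted p under 0.05 in either fit. Few genes of any kind passed there: 0 of all genes rose in either fit and 0 and 1 fell, with 0.241% and 1.70% lower at an unadjusted p under 0.05, so the count of 0 is no result about the regulators.

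**Figure D2:**
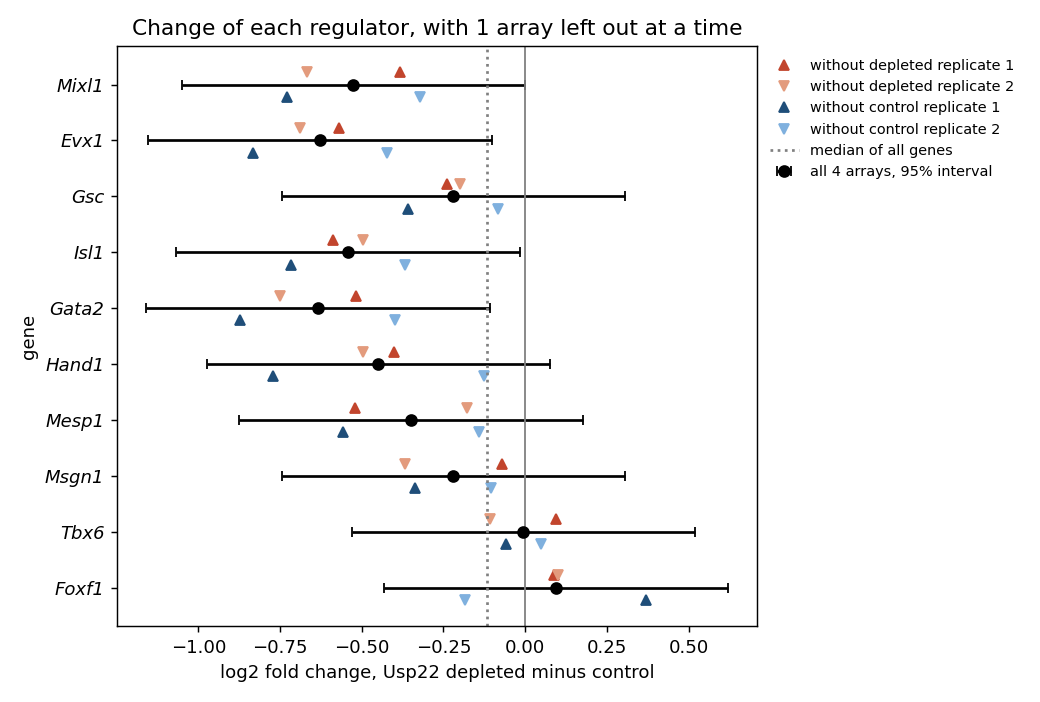
Log2 fold change (x axis, Usp22 depleted minus control) of each of the 10 regulators (y axis), with black points and 95% intervals for all 4 arrays and triangles for fits with 1 array left out. Pale blue triangles, without control replicate 2, lie closer to 0 than the black points for Mixl1, Evx1, Isl1, Gata2 and Hand1, and dark blue ones, without control replicate 1, lie farther from it.

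The regulators were set beside all genes by brightness, because Isl1, Tbx6 and Foxf1 averaged below the receptor background and the other 7 of the 10 above it. With all genes split by mean signal into 10 bins of equal size, numbered from dim to bright, 8 of the regulators were in bins 5, 6 and 7, where the median log2 fold changes were −0.19, −0.16 and −0.16. Mesp1 was in bin 9 and Evx1 in bin 10, with medians of 0.10 and 0.03. In these 5 bins 36.0% to 39.1% of genes lay below the controls without overlap. Gata2, Evx1, Isl1, Mixl1 and Hand1 lay below the lower quartile of their own bin (−0.41, −0.36, −0.35, −0.37 and −0.37).

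**Figure D3:**
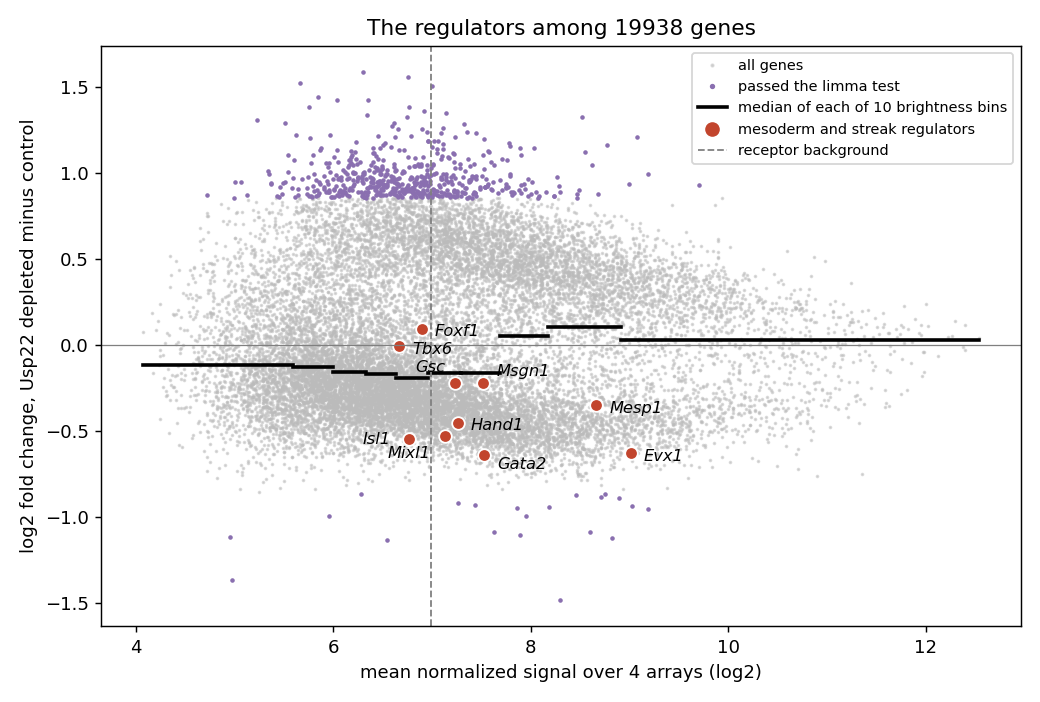
Log2 fold change (y axis, Usp22 depleted minus control) against mean normalized log2 signal over 4 arrays (x axis) for 19938 genes, with the regulators in red, genes that passed the limma test in violet, and black bars for the medians of 10 bins of genes by brightness. The regulators lie between −0.63 and 0.09, inside the cloud of genes that did not pass.

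The promoter windows were set beside these values. The 4 genes whose depleted arrays lay below the controls without overlap and whose windows were at hand, Evx1, Gsc, Gata2 and Isl1, had 12 to 37 CpG dinucleotides, and the 3 with overlapping groups, Mesp1, Msgn1 and Tbx6, had 4 to 7. Over all genes with a window (15614), the median count, taking the richest window of a gene, was 15 for genes below the controls without overlap, 21 for those above and 11 for those with overlapping groups. Genes above the controls thus had the higher median count in the whole table. The median over all genes with a window was 16. Gsc, counted among the 4, stood at −0.08 without control replicate 2. Whether CpG count bears on the regulators' values was not tested. The 2 genes with TCF/LEF letters, Mesp1 and Msgn1, both had overlapping groups.

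The closest relatives of the regulators were measured for 16 genes, and 0 rose and 0 fell (limma adjusted p under 0.05). At an unadjusted p under 0.05, 3 were lower and 0 higher, against 6.63% and 15.4% of all genes. The paralogs' median log2 fold change was −0.32. Without overlap, 7 of the 16 lay below the controls and 0 above, against 33.3% and 27.4% of all genes. Gsc2, the paralog of Gsc, read 8.55 and 8.60 in depleted cells, against 8.98 and 9.61 in control cells, or −0.72 as a log2 fold change (adjusted p = 0.108). Gsc2 passed as lower with the intensity trend (limma adjusted p = 0.0173), with trend and robust settings (0.0108) and without the dimmer 50% of genes (0.0394, where 1.48% of the genes tested fell). Tbx3, a T-box factor of the naive stem cell network, stood at −0.67 (limma adjusted p = 0.131) and passed with the trend (1.04e-05) and with trend and robust settings (2.91e-05). Tbx4 stood at −0.54. Without control replicate 2 none of the 3 passed in limma, and Gsc2 stood at −0.40, Tbx3 at −0.57 and Tbx4 at −0.28. Over all 4 arrays, Hand2 stood at −0.50, Isl2 at −0.40, Evx2 at −0.31, Mesp2 at 0.15 and Foxf2 at −0.0027. In the GATA family, Gata4 and Gata1 stood at −0.50 and −0.45, Gata5 at −0.09, Gata3 at 0.09 and Gata6 at 0.02. Tbx5, Tbx18 and Tbx2 stood at −0.33, −0.16 and −0.04. Without control replicate 2, Isl2 stood at −0.15, Evx2 at −0.050, Gata4 at −0.24 and Gata1 at −0.20. Most of the paralogs were dim, with 5 of 16 above the receptor background. Gata1, Gata4, Gata5, Gata6, Hand2 and Tbx5 are also among the later mesoderm factors below, and Mesp2 among the other streak genes.

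Other genes of the streak and early mesoderm had differences on both sides of 0. Of 35 measured, 0 rose and 0 fell (limma), with a median of −0.22. At an unadjusted p under 0.05, 4 were higher and 2 lower, against 15.4% and 6.63% of all genes. Those with the lowest p were Cited1, a transcriptional cofactor gene (log2 fold change 0.82, limma adjusted p = 0.0630), Otx2, a homeodomain factor of the epiblast and anterior embryo (0.69, adjusted p = 0.119), Apln, the ligand of the apelin receptor (−0.66, adjusted p = 0.139), and Zic2, a zinc finger factor of the primed epiblast (0.63, adjusted p = 0.155). Without control replicate 2, Cited1 stood at 0.59 and Otx2 at 0.48. Cited1 was under the background on both control arrays. Both passed under some of the alternatives, such as Otx2 with each array centred on its median (0.88, limma adjusted p = 0.0367) and Cited1 with the dimmest 25% of genes left out (limma adjusted p = 0.0345). Eomes, a T-box factor upstream of Mesp1, stood at 0.45 with both group means under the background, named after its value was seen.

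Signals that pattern the streak were grouped by role. Of 15 measured ligand genes 1 rose and 0 fell, with a median of 0.19. The gene was Bmp7, a BMP ligand, which read 7.68 and 7.67 in depleted cells, against 6.89 and 6.67 in control cells, both under the background (log2 fold change 0.90, limma adjusted p = 0.0405). Bmp7 lost its call without control replicate 2 (0.79, limma adjusted p = 0.113), with the intensity trend (0.0645) and on the deposited log2 values (0.121). The Wnt ligand genes Wnt11, Wnt3a and Wnt3 stood at −0.54, −0.52 and 0.43, and without control replicate 2 they stood at −0.21, −0.18 and 0.14. Wnt3 was under the background in both group means. Nodal, the inducer of the streak, stood at 0.19 with overlapping groups, also named after its value was seen.

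Of 23 measured receptors and effectors, 8 were higher and 0 lower at an unadjusted limma p under 0.05 (15.4% and 6.63% of all genes). Of the 23, 3 rose and 0 fell (2.62% and 0.105% of all genes), with a group median of 0.39. They were Lef1, a partner of beta-catenin with both control arrays under the background (1.51), Fgfr2, an FGF receptor under the background in both group means (1.22), and Fzd7, a Wnt receptor (0.89). Fzd7 read 8.51 and 8.48 in depleted cells, against 7.77 and 7.43 in control cells (limma adjusted p = 0.0416). Without control replicate 2 Lef1 kept its call (limma adjusted p = 0.000389), while Fgfr2 (0.0744) and Fzd7 (0.140) lost theirs. Acvr2a, an activin receptor gene, stood at 0.78 (limma adjusted p = 0.0806), and at 0.45 without control replicate 2. Acvr2a passed without the dimmest 25% and the dimmer 50% of genes (limma adjusted p = 0.0471 and 0.0277). Of 16 measured antagonists, 4 were higher and 1 lower at an unadjusted limma p under 0.05 (15.4% and 6.63% of all genes). Of the 16, 2 rose and 0 fell (2.62% and 0.105% of all genes), with a group median of −0.23. These were the Nodal antagonists Lefty1 (1.17) and Lefty2 (1.13), of which Lefty2 lost its call without control replicate 2 (0.70, limma adjusted p = 0.162). Sfrp2, a Wnt antagonist, stood at 0.73 (it passed with each array centred on its median, at 0.91, limma adjusted p = 0.0318). Dact1, under the background in both group means, stood at 0.54 (0.17 without control replicate 2). Dkk1, named after its value was seen, stood at −0.53. It read 8.48 and 8.13 in depleted cells, against 8.57 and, on control replicate 2, 9.09.

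Later cardiac, lateral plate and blood mesoderm was represented by 22 measured factors and structural genes. Of these, 4 were higher and 0 lower at an unadjusted limma p under 0.05 (15.4% and 6.63% of all genes). Of the 22, 1 rose and 0 fell (2.62% and 0.105% of all genes), with a group median of −0.32. Hopx, an atypical homeodomain gene of the heart, read 6.67 and 6.38 in depleted cells, against 5.73 and 5.57 in control cells (log2 fold change 0.87, limma adjusted p = 0.0460), all 4 under the background. Its call was lost without control replicate 2 (0.79, limma adjusted p = 0.118), with the intensity trend (0.103) and on the deposited log2 values (0.150), and on those values Fzd7 lost its call too (0.0924). None of the 7 genes of these lists that rose passed without either depleted array (limma adjusted p from 0.235 to 0.830), nor did Usp22 (0.360 and 0.830), but in those fits 0 of all 19938 genes rose, and Lef1 stood at 1.45 and 1.56. Myl7, an atrial myosin light chain gene, stood at 0.65, Lmo2, a cofactor of blood formation, at 0.63 and Hhex, a homeodomain gene of endoderm and blood vessels, at 0.59, none of which passed. Lmo2 was under the background in both group means, and Hhex on both control arrays. Without control replicate 2, Lmo2 stood at 0.28 and Hhex at 0.20. Whether these gene groups differ from the regulators was not tested.

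**Figure D4:**
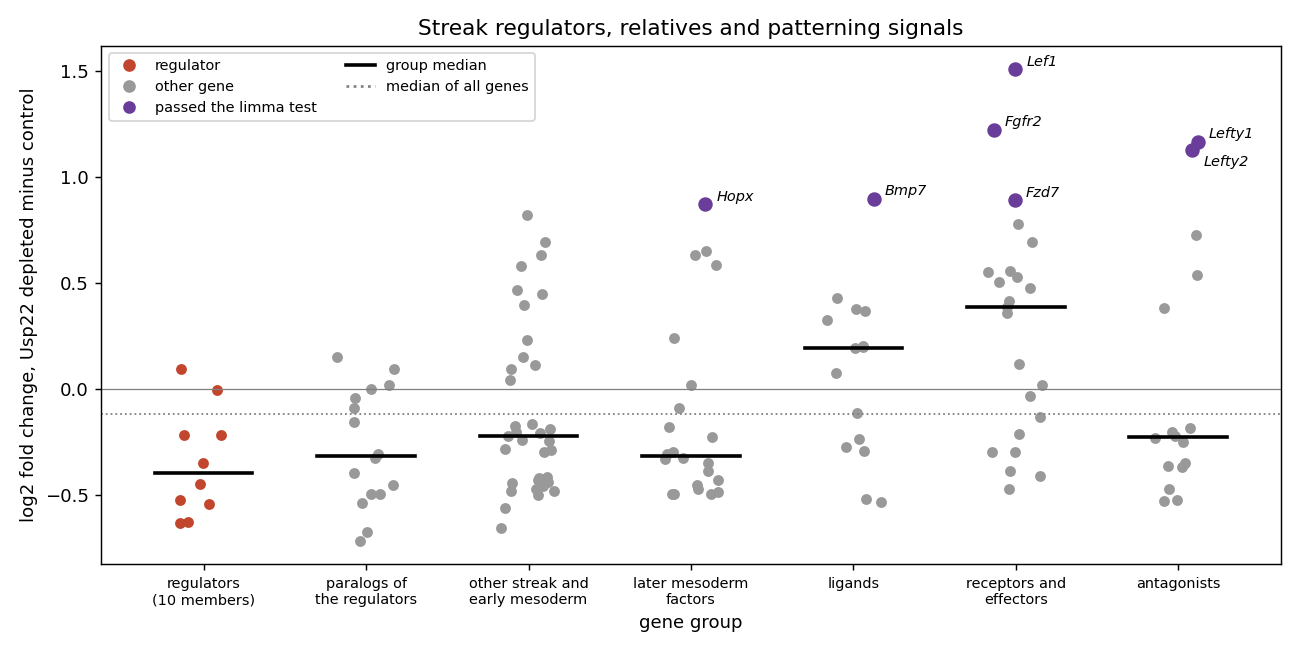
Log2 fold change (y axis, Usp22 depleted minus control) of each measured gene in 7 groups (x axis), with the 10 regulators in red, genes that passed the limma test in violet and named, bars for group medians and a dotted line for the median of all genes at −0.12. The 7 genes that passed were all higher in depleted cells, and 0 of them are among the regulators or their paralogs.

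Markers of other cells were measured beside these genes. Of 11 fibroblast and feeder markers 6 lay above the background and 0 passed the test. Without overlap, 7 were lower and 2 higher, where 33.3% and 27.4% of all genes were. Their median log2 fold change was −0.19. Their summed normalized signal on the linear scale was 1804 to 1859 in depleted cells and 1846 to 1997 in control cells. Col1a1 and Col1a2, which encode chains of type I collagen, stood at −0.60 and −0.55, and the collagen genes Col5a1 and Col3a1 at −0.43 and −0.30. Col1a1 read 7.58 and 7.78 in depleted cells, against 7.92 and, on control replicate 2, 8.64. Col1a2 read 7.26 and 7.23 in depleted cells, against 7.50 and, on control replicate 2, 8.09. For Col5a1 control replicate 1 was the higher control array. Thy1, a surface glycoprotein gene, and Vim stood at 0.44 and 0.37, both higher without overlap, while Dcn, Lum, Pdgfrb, Postn and S100a4 were under the background. Of 12 primitive endoderm markers 5 lay above it, with Gata6, Sox7, Foxa2, Pdgfra, Afp, Ttr and Col4a1 under it. The sum of the 12 was 2012 to 2076 in depleted cells and 2034 to 2050 in control cells. Sparc, the brightest of the 12, stood at 0.31. The median log2 fold change of the list was −0.31, with 9 means lower and 3 higher. Without overlap, 7 were lower and 2 higher. Of 12 blood and endothelial markers 2 lay above the background (Pecam1 and Etv2). Their list summed to 1321 to 1394 in depleted cells and 1231 to 1310 in control cells. Its median log2 fold change was −0.27, with 7 means lower and 5 higher. In both of these lists 0 genes passed (limma). The stem cell markers summed to 20701 to 21138 in depleted cells and 22265 to 22360 in control cells, with 0 of 20 passing the test. Such a sum is weighted to the brightest genes. The median log2 fold change of the 20 was 0.03, with 11 means higher and 9 lower. Without overlap, 8 of the 20 were higher and 7 lower. The part of these cells or states in the regulators' values was not tested.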

How the data were processed

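The deposited table holds linear intensities, 1 for each of 28856 probe sets on each array. How the authors summarised and scaled them is not given in the sources used here. Per the labels' protocols, Trizol and column purified RNA was made into biotin-labelled cDNA. Array medians were 110 and 115 for the depleted arrays and 120 and 128 for the control arrays. The lowest value was 16 on every array. The number of arrays limits the precision.

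Intensities were log2-transformed, then quantile-normalized between arrays. GEO's platform annotation gave 1 symbol to 21789 probe sets, several to 1621 and none here to 5446, and 21698 matched RefSeq gene IDs. The brightest probe set of each gene was kept. The test was limma's (version 3.58.1, R 4.3.3), with lmFit and eBayes on 2 groups, two-sided, Benjamini-Hochberg adjusted over 19938 genes at 0.05. Adjusted p-values come from this fit unless another is named. The fit was tested on simulated data first. It had 2 residual degrees of freedom for each gene, but limma's variance was pooled fully, and all genes shared a standard error of 0.27. The p-values and intervals of this fit therefore depend only on the size of a gene's difference. They do not reflect the spread of that gene's own replicates. The pooled standard deviation was 0.32 in control cells and 0.20 in depleted cells, and the fit treats the groups as equally variable. The smallest called change was 0.86.

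The members and lists were chosen with earlier results of these data known. Named were the regulators, their paralogs, Usp22, up to 4 genes of each list with the lowest p, and all that passed. Some marker and signal genes were named after their values were seen. Other scaling, filters, variance settings, the replicate number as a block and leaving out each array were tried.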

Additional observations from a re-analysis of the deposited data

How the results depend on the processing

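The count of regulators that fell was 0 in all fits except with limma's intensity trend (1, Evx1), with trend and robust settings (1, Evx1) and without control replicate 1. Leaving out each array gave 0 to 6, and the count that rose was 0 in every fit. Regulators lower at an unadjusted limma p under 0.05 were 4 in the main fit. They were 2 with median centring, with the trend, with robust settings, with both, and with cyclic loess (3.22% to 8.36% of all genes). They were 4 on deposited values, with probe sets averaged, without the dimmest 25% of genes and with the block (6.55% to 14.2%). Over all genes, 523 rose and 21 fell at an adjusted p under 0.05. The higher count was 927 after centring on array medians. The higher and lower counts were 75 and 10 on unscaled deposited values, 326 and 286 with the trend, 295 and 11 with robust settings, and 972 and 37 with cyclic loess, chosen after seeing the data. The lower count was 339 with trend and robust settings, 36 without the dimmest 25% of genes and 148 without the dimmer 50%, where 7 regulators were tested. Leaving out 1 array gave 0 to 4884 higher and 0 to 4236 lower. With the replicate number as a block the counts were 856 and 42, with 0 regulators. Deviations of same-numbered arrays correlated at 0.10, and with 2 arrays a group this does not settle whether they share a culture or infection.

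The median of all genes was −0.12, −0.09 after centring and −0.24 on deposited values, and the regulators' medians were −0.40, −0.27 and −0.41. Values near 0 changed sign. Foxf1 stood at −0.057 on deposited values and −0.050 with its probe sets averaged, and Tbx6 at 0.025 with cyclic loess. Leaving out 1 array moved Foxf1 between −0.18 and 0.37 and Tbx6 between −0.11 and 0.095. On deposited values Mesp2, Gata3 and Gata6 stood at −0.023, −0.091 and −0.13, and Foxf2 at 0.049 with cyclic loess. Without 1 array at a time, the paralogs Tbx18, Mesp2 and Gata3 ran from −0.36 to 0.049, −0.20 to 0.50 and −0.19 to 0.38, and Gata5, Tbx2, Gata6 and Foxf2 from −0.20 to 0.019, −0.33 to 0.24, −0.17 to 0.20 and −0.30 to 0.30.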

Other observations

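Cells that pass through the streak lose epithelial junctions, and 16 measured genes of that transition were examined beside the regulators. In limma's fit 0 rose and 0 fell, where 2.62% and 0.105% of all genes did, and the median log2 fold change was −0.10. Without adjustment, 2 were higher and 1 lower at a limma p under 0.05, against 15.4% and 6.63% of all genes. The 4 with the lowest p were Ocln, a tight junction gene (0.73), Cdh2, which encodes N-cadherin (0.57), Snai1, a repressor of E-cadherin and an early factor of the transition (−0.56), and Epcam, an epithelial adhesion gene (0.51), with limma adjusted p from 0.102 to 0.237. Ocln stood at 0.46 and Snai1 at −0.32 without control replicate 2. Cdh2 was under the background in both group means, and Ocln on both control arrays. Cdh1, which encodes E-cadherin, stood at 0.35 and Vim, a mesenchymal filament gene, at 0.37, both named after their values were seen.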
